A study of Mus musculus with 9 samples.

Results

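The genes examined were *Ptpn11*, which encodes the phosphatase SHP2, *Ptpn6* (SHP1), *Ptpn1* (PTP1B), the docking protein genes *Gab1*, *Gab2* and *Frs2*, and the RAS adaptor genes *Grb2*, *Shc1* and *Sos1*. They were chosen by name as phosphatases related to the target of the inhibitor NSC-87877 (NSC) and as the docking and adaptor proteins around it, and they are 9 of the 43346 genes listed in the RNA-Seq table. All 9 were kept by the filter on low counts. SHP2 is a cytoplasmic tyrosine phosphatase with a pair of SH2 domains, and it becomes active when these bind phosphorylated tyrosines on docking proteins such as GAB1, GAB2 and FRS2. GRB2 couples activated receptors, SHC1 and the docking proteins to SOS1, the exchange factor that loads RAS with GTP, and SHP2 is known as a positive regulator of this route to ERK in liver. SHP1 has the same domain layout but is known mainly from blood cells as an inhibitory phosphatase, and PTP1B is known in liver for removing phosphate from the insulin receptor. NSC is known to inhibit SHP1 as well as SHP2.

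Whole liver mRNA was sequenced from 9 C57/BL6 mouse samples aged 12 weeks, in 3 groups of 3. The baseline group held liver removed at the 70% hepatectomy from vehicle-treated mice (0 h), the vehicle group held remnants 40 h later, and the NSC group held remnants at 40 h from mice given NSC at 7.5 mg/kg per dose, with 2 doses a day begun 12 h before surgery. Vehicle was saline by the same route, all mice of all groups therefore underwent the operation, and no resection specimen of an NSC-treated mouse was analysed here. Which mouse each specimen came from is not stated, so the spread within a group is that between the 3 deposited samples.

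Between 23997363 and 42887589 counts fell on genes in a library, and levels are given in CPM, counts scaled by library size, in which 3 counts equal 0.0751 to 0.117 depending on the library. CPM with TMM scaling is used to follow 1 gene across libraries, and levels of different genes are compared only as FPKM, which divides by gene length. The 10 hepatocyte marker genes summed to between 92675 and 130978 CPM in every library, most of it *Alb*. The other genes of that list summed to 33087 to 36350 CPM at baseline, 17547 to 27512 with vehicle and 14684 to 21164 with NSC. Without *Alb* the sum was thus lower in both 40 h groups. The 6 proliferation genes rose in both 40 h groups, from at most 6.76 CPM in all at baseline to 278 to 358 CPM with vehicle and 178 to 770 CPM with NSC. NSC replicate 1 stood apart within its group, with 178 CPM of proliferation genes beside 770 and 622, 257 CPM of endothelial genes beside 146 and 165, and 240 CPM of stellate cell genes beside 116 and 112. Without it 3 members were called with NSC against baseline and 0 against vehicle, as with it. These are measurements of mRNA, and phosphatase activity, phosphorylation and protein were not measured in this table.

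The 3 phosphatases share a catalytic loop that holds a cysteine and, after 5 further codons, an arginine. Its coding sequence in the GENCODE M21 annotation of GRCm38 is shown because it holds the catalytic cysteine and because close copies of a sequence could share reads. Capitals mark the 24 bases from the codon before the cysteine to the arginine codon, with 15 coding bases on either side.
Ptpn11: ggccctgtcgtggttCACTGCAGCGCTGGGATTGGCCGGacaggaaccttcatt
Ptpn6: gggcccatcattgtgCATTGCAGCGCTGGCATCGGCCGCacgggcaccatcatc
Ptpn1: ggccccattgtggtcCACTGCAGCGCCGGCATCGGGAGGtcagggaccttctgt
The *Ptpn11* stretch lies on the minus strand in 2 exons, at chr5:121143599-121143629 and chr5:121144530-121144552. The *Ptpn6* stretch is also on the minus strand and split at the same place, at chr6:124722048-124722078 and chr6:124724957-124724979, whereas that of *Ptpn1* lies on the plus strand in 1 exon, at chr2:167974192-167974245. In capitals, 20 of 24 bases were identical between *Ptpn11* and *Ptpn6*, and 19 of 24 between *Ptpn1* and each of them. Over the aligned coding sequences, *Ptpn11* was 64.1% identical to *Ptpn6* in 1739 aligned bases. *Ptpn1* has a shorter coding sequence, and was 65.1% identical to *Ptpn11* in 1231 aligned bases and 62.8% identical to *Ptpn6* in 1239, so these shares cover other stretches. The alignments were forced over whole coding sequences, and no share for unrelated sequences was computed. The shares therefore do not rank the pairs by relatedness.

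The 250 bases before the RefSeq start site (GRCm38.p6) are shown for *Ptpn11* and for *Ptpn1* and *Gab1*, the members that changed in both comparisons with baseline. Capitals mark the letters GGGCGG (the GC box bound by SP1) and TGACG (the core of the cAMP response element) on either strand.
Ptpn11: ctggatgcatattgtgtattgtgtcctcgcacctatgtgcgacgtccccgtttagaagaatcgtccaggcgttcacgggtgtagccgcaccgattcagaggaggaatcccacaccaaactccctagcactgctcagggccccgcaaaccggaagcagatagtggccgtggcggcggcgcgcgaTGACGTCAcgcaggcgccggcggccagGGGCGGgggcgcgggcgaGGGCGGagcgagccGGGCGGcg
Ptpn1: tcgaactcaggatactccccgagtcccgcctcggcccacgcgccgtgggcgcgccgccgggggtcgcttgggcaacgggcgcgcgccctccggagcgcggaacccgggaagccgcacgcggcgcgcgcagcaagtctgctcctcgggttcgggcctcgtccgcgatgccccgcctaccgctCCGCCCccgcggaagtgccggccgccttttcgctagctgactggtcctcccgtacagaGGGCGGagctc
Gab1: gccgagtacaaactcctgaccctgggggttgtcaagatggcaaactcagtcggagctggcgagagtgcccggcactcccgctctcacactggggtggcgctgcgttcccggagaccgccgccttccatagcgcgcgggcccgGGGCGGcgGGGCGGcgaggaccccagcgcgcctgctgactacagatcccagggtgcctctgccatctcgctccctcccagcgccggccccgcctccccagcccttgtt
These windows are chr5:121191398-121191647 on the minus strand, chr2:167932077-167932326 on the plus strand and chr8:80880520-80880769 on the minus strand. *Ptpn11* held 3 GC boxes, the nearest beginning 8 bases before the start site, and a palindrome of 2 overlapping TGACG letters at 67 bases. *Ptpn1* and *Gab1* each held 2 GC boxes. A second *Gab1* window, at chr8:80880480-80880729 and not shown, also held 2. A GC box was present in 32.7% of all 32851 windows of this length and TGACG in 17.8%. GC content was 66.8%, 75.2% and 70.8% in the 3 windows shown, against a median of 52.4% over all windows. Windows were matched for 8 of the 9 members, and none of the 8 held CACGTG (the E-box) or GGAATG (bound by TEAD factors), which were found in 6.02% and 12.6% of all windows. TGACTCA (the AP-1 site, 4.46% of windows) was present in 1 of 2 *Shc1* windows, and CCAAT (33.8%) in windows of *Grb2* and *Shc1*. Both *Grb2* windows (chr11:115699535-115699784 and chr11:115699929-115700178) and the *Shc1* window with TGACTCA (chr3:89421371-89421620) lie inside the listed genes. So does the *Ptpn1* window shown, since the listed gene (chr2:167932057-167979385) begins before the RefSeq start site.

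*Ptpn11*, the gene of the inhibited enzyme, lies at chr5:121130533-121191397 and was called in no comparison. Its level was 82.8, 70.1 and 80.4 CPM in the baseline samples, 85.4, 94.5 and 86.8 CPM in the vehicle remnants, and 93.9, 83.6 and 76.4 CPM in the NSC remnants. Every vehicle remnant was above every baseline sample, by a narrow margin, and the NSC remnants overlapped both groups. The log2 fold change was 0.19 ± 0.14 (SE) for vehicle against baseline (adjusted p = 0.335, edgeR quasi-likelihood test with Benjamini-Hochberg adjustment, used throughout), and 0.12 ± 0.14 for NSC against baseline (adjusted p = 0.518). Between NSC and vehicle remnants it was -0.07 ± 0.14, with a 95% interval of -0.37 to 0.23 (adjusted p = 0.809). This interval corresponds to a fold between 0.775 and 1.17, so differences inside it could not be told from none with 3 samples a group.

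*Ptpn6* (chr6:124720707-124738714), the gene of SHP1, was lower in NSC remnants than at baseline. It measured 20.1, 20.7 and 23.3 CPM at baseline, 19.3, 20.2 and 16.7 CPM with vehicle, and 16.0, 16.0 and 14.4 CPM with NSC. The NSC samples lay below all 6 other libraries, while the baseline and vehicle samples overlapped. Against baseline it fell by 27.7% with NSC (log2 fold change -0.47 ± 0.14, adjusted p = 0.0229), and the difference was -0.19 ± 0.14 with vehicle (adjusted p = 0.363). NSC against vehicle gave -0.28 ± 0.14, with an interval of -0.59 to 0.03 (adjusted p = 0.291), so the direct comparison did not pass. The call against baseline was lost without baseline replicate 3 (adjusted p = 0.107), NSC replicate 2 (0.0518) or NSC replicate 3 (0.0554), with library size as the only scaling (-0.33, adjusted p = 0.118), and after correction for GC content (-0.18, adjusted p = 0.269).

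Because *Ptpn6* is known mainly from blood cells, leukocyte genes were read beside it. In whole liver, fewer cells of a type and less RNA per cell cannot be told apart. The 12 pan-leukocyte genes, among them *Ptprc* and *Coro1a*, summed to 145 to 182 CPM at baseline, 94.5 to 144 CPM with vehicle and 138 to 184 CPM with NSC. At baseline most of this sum was *Lcp1*, at 97.2 to 122 CPM at baseline, 48.2 to 64.8 with vehicle and 69.8 to 76.9 with NSC. The other 11 genes summed to 47.4 to 59.5 CPM at baseline, 46.3 to 79.4 with vehicle and 61.3 to 114 with NSC, so without *Lcp1* the NSC samples were above baseline. Of these genes 1 rose and 1 fell in each comparison with baseline, and the median log2 fold change was 0.11 with vehicle and 0.59 with NSC, the latter 0.07 without NSC replicate 1. The count with vehicle was 1 fewer when any 1 baseline or vehicle library was left out, and the count with NSC was 1 fewer without baseline replicate 1. With NSC, 4 of the 12 were called after GC correction and 5 with library size as the only scaling. Over all tested genes 12.7% rose and 11% fell with vehicle, and 18.2% rose and 16.5% fell with NSC. The 13 macrophage genes summed to 291 to 363 CPM at baseline, 293 to 489 CPM with vehicle and 515 to 734 CPM with NSC, and 6 of them rose and 0 fell with NSC against baseline (2 rose and 0 fell with vehicle, which became 1 without baseline replicate 2 or 3 and 4 without NSC replicate 1). The summed macrophage level was thus highest in the NSC libraries, where *Ptpn6* was lowest, although 7 of the 13 genes did not pass. Without *Cd5l* the sums were 241 to 303 CPM at baseline, 237.2 to 393.54 with vehicle and 393.50 to 561.8 with NSC. The vehicle and NSC groups then overlapped by a narrow margin. Against vehicle, edgeR called 0 of 13 and 6 had an unadjusted p under 0.05. DESeq2 called 4, and the share of all genes that it called was not read beside this. Without NSC replicate 1 the median log2 fold change of the list with NSC against baseline went from 0.97 to 0.48. Lymphocyte genes summed to 2.20 to 9.60 CPM at baseline, 0.775 to 2.67 CPM with vehicle and 2.21 to 3.30 CPM with NSC, with 2 of 6 tested falling with vehicle and 1 with NSC. The vehicle count rests on single libraries, since it was 0 without baseline replicate 1, baseline replicate 3 or vehicle replicate 3, 1 without vehicle replicate 1, 4 without vehicle replicate 2 and 5 without baseline replicate 2, and with NSC it was 2 without baseline replicate 2. Neutrophil genes summed to 3.91 to 11.8, 10.2 to 21.7 and 13.9 to 23.6 CPM in the same order, with 2 and 4 of 6 tested rising (with vehicle 4 without baseline replicate 1, and 1 without baseline replicate 2 or 3 or vehicle replicate 1 or 2), and *Camp* was at 0 in every baseline library. The part of these cells in the level of *Ptpn6* was not tested.

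*Ptpn1* (chr2:167932057-167979385), the gene of PTP1B, had the largest difference of the 9 genes in the vehicle remnants. It measured 20.9, 24.2 and 21.6 CPM at baseline, 38.1, 46.8 and 45.5 CPM in the vehicle remnants and 33.2, 38.9 and 29.0 CPM in the NSC remnants. All 6 remnants were above all 3 baseline samples, and the remnant groups overlapped in a single pair of values. *Ptpn1* rose 1.95-fold with vehicle (log2 fold change 0.97 ± 0.15, adjusted p = 0.00109) and 1.52-fold with NSC (0.60 ± 0.15, adjusted p = 0.00933). These calls were kept under all 17 alternative settings, with log2 fold changes of 0.91 to 1.06 and 0.49 to 0.92. NSC against vehicle gave -0.37 ± 0.15 with an interval of -0.69 to -0.04, and an unadjusted p of 0.0313 that did not pass over all genes (adjusted p = 0.215, 19.5% of tested genes had an unadjusted p under 0.05). After the correction for GC content that difference was -0.12 ± 0.15 (adjusted p = 0.805).

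The levels of the phosphatases relative to each other shifted with time. The FPKM of *Ptpn6* divided by that of *Ptpn11* in the same library was 0.650, 0.788 and 0.774 at baseline, 0.605, 0.573 and 0.515 with vehicle, and 0.454, 0.512 and 0.503 with NSC. The 3 groups did not overlap on this ratio, although vehicle and NSC were apart only by a narrow margin (0.515 and 0.512). No test was run on it. *Ptpn1* over *Ptpn11* was 0.342, 0.468 and 0.363 at baseline, 0.604, 0.671 and 0.709 with vehicle, and 0.479, 0.631 and 0.514 with NSC. Here both remnant groups lay above baseline and overlapped each other. The longest transcripts of the 3 genes differ in GC content, at 50.6% for *Ptpn11*, 54.9% for *Ptpn6* and 55.6% for *Ptpn1*, and after GC correction the log2 fold changes for NSC against baseline were 0.20, -0.18 and 0.92. Between NSC and vehicle, the log2 fold change of *Ptpn6* minus that of *Ptpn11* was -0.21 before the correction and -0.04 after it, so the gap between those groups on the ratio of *Ptpn6* to *Ptpn11* was not kept.

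**Figure D1:**
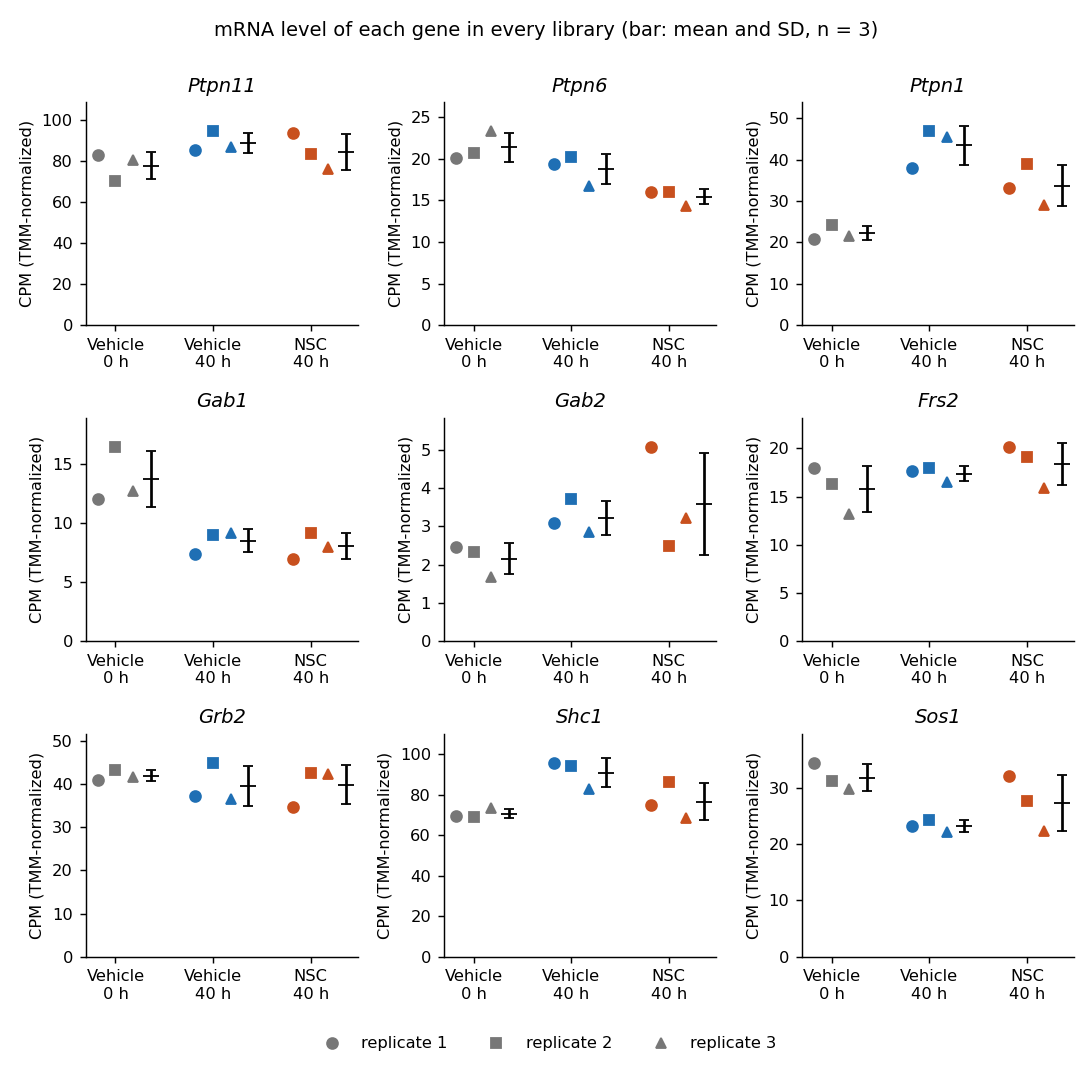
TMM-normalized CPM (vertical axes from 0) of each of the 9 genes in each of 9 libraries, by group, with point shape for the replicate number and black bars for the mean and SD of 3 libraries. *Ptpn1* is above baseline and *Gab1* below it in all 6 remnants, and *Ptpn6* is lowest in the 3 NSC remnants.

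Among the docking proteins, *Gab1* fell in both remnant groups. GAB1 is phosphorylated downstream of receptors such as MET and EGFR and then binds SHP2, and its gene is listed at chr8:80764434-80880479. *Gab1* measured 12.0, 16.4 and 12.7 CPM at baseline, 7.36, 8.99 and 9.12 CPM with vehicle, and 6.96, 9.17 and 7.94 CPM with NSC. Every remnant lay below every baseline sample, and the remnant groups overlapped. It fell by 38.2% with vehicle (log2 fold change -0.70 ± 0.19, adjusted p = 0.0179) and by 41.6% with NSC (-0.78 ± 0.19, adjusted p = 0.00727). The call with vehicle was lost without baseline replicate 2, the highest sample (-0.54, adjusted p = 0.0774), or without vehicle replicate 1, the lowest of its group (-0.60, adjusted p = 0.0850), and the call with NSC was kept under all 17 alternatives. NSC against vehicle gave -0.08 ± 0.19, with an interval of -0.49 to 0.32 (adjusted p = 0.843), and this small difference changed sign with library-size scaling (0.05) and GC correction (0.03).

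*Gab2*, the relative of *Gab1* at chr7:97081751-97308940, had the lowest level of the 9 genes, with 51 to 169 counts in a library. It measured 2.46, 2.32 and 1.68 CPM at baseline, 3.08, 3.71 and 2.84 CPM with vehicle, and 5.07, 2.48 and 3.21 CPM with NSC. Both remnant groups were above baseline without overlap, although NSC replicate 2 exceeded the highest baseline sample by a small margin. The log2 fold changes were 0.57 ± 0.30 with vehicle (adjusted p = 0.186) and 0.74 ± 0.30 with NSC (adjusted p = 0.0757), and neither passed. For NSC the value moved between 0.40 without NSC replicate 1 and 0.95 without NSC replicate 2, and in the second case it passed (adjusted p = 0.0416). It passed as well with library-size scaling (0.89, adjusted p = 0.0419) and with GC correction (0.84, adjusted p = 0.0494). NSC against vehicle gave 0.16 ± 0.29, with an interval of -0.48 to 0.80 (adjusted p = 0.795), and -0.18 without NSC replicate 1.

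The FPKM of *Gab2* relative to *Gab1* was 0.166, 0.114 and 0.107 in the baseline samples, 0.339, 0.334 and 0.253 in the vehicle remnants and 0.590, 0.219 and 0.327 in the NSC remnants. *Gab2* thus stayed below *Gab1* in every library, and all remnants had a higher ratio than all baseline samples. The spread of the ratio in the NSC group, an SD of 0.191 around a mean of 0.379, spanned the vehicle values.

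*Frs2* (chr10:117070129-117148474) encodes the docking protein of fibroblast growth factor receptors. It measured 17.9, 16.3 and 13.2 CPM at baseline, 17.7, 18.0 and 16.5 CPM with vehicle, and 20.1, 19.2 and 15.9 CPM with NSC, and all groups overlapped. Its log2 fold changes were 0.14 ± 0.16 with vehicle (adjusted p = 0.570) and 0.22 ± 0.16 with NSC against baseline (adjusted p = 0.304). NSC against vehicle gave 0.08 ± 0.16, with an interval of -0.26 to 0.43 (adjusted p = 0.808). With GC correction the values for NSC turned negative, -0.05 against baseline and -0.11 against vehicle. The ratio of *Frs2* to *Gab1* in FPKM was 0.849 to 1.27 at baseline, 1.55 to 2.05 with vehicle and 1.71 to 2.47 with NSC, so the docking genes were at like levels at baseline and *Frs2* was the higher in each remnant.

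*Grb2* (chr11:115644045-115708597), which links receptors and docking proteins to SOS1, had the smallest difference of the 9 genes in each comparison. It measured 41.0, 43.3 and 41.7 CPM at baseline, 37.2, 44.9 and 36.6 CPM with vehicle, and 34.6, 42.5 and 42.4 CPM with NSC. The groups overlapped in every comparison. The log2 fold changes were -0.09 ± 0.14 (adjusted p = 0.696), -0.08 ± 0.14 (adjusted p = 0.699) and, for NSC against vehicle, 0.01 ± 0.14 with an interval of -0.29 to 0.31 (adjusted p = 0.976). The sign for NSC against baseline changed with library-size scaling and with GC correction, to 0.06 in each.

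*Shc1* (chr3:89418443-89430027) encodes an adaptor that is phosphorylated by receptors and recruits GRB2. It measured 69.6, 69.1 and 73.3 CPM at baseline, 95.5, 94.1 and 82.7 CPM with vehicle, and 74.8, 86.3 and 68.5 CPM with NSC. The vehicle remnants were all above baseline, and the NSC remnants overlapped both groups. With vehicle the log2 fold change of 0.36 ± 0.14 did not pass (adjusted p = 0.0722), although it did when only the 2 groups were fitted (0.37, adjusted p = 0.0375), after GC correction (0.40, adjusted p = 0.0322) and without NSC replicate 3 (0.37, adjusted p = 0.0478). NSC against baseline gave 0.12 ± 0.14 (adjusted p = 0.537), and NSC against vehicle -0.25 ± 0.14 with an interval of -0.54 to 0.05 (adjusted p = 0.331).

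*Sos1* (chr17:80393752-80480453), the RAS exchange factor gene, was lower in the vehicle remnants. It measured 34.3, 31.2 and 29.8 CPM at baseline, 23.2, 24.2 and 22.2 CPM with vehicle, and 32.1, 27.5 and 22.2 CPM with NSC. The vehicle remnants lay below all baseline samples, and the NSC samples spread over nearly the whole range of the other groups. *Sos1* fell by 26.9% with vehicle (log2 fold change -0.45 ± 0.15, adjusted p = 0.0492), a call close to the threshold that was lost under 10 of 17 alternatives, including the removal of any 1 baseline or vehicle library (adjusted p of 0.0832 to 0.159). NSC against baseline gave -0.22 ± 0.15 (adjusted p = 0.285), and NSC against vehicle 0.23 ± 0.15 with an interval of -0.10 to 0.56 (adjusted p = 0.412). *Sos1* had the lowest GC content of the 9 genes, 41.0%, and GC correction moved it most, to -0.56 with vehicle (adjusted p = 0.0157), -0.68 with NSC against baseline (adjusted p = 0.00615) and -0.11 with NSC against vehicle (adjusted p = 0.791).

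Relative to *Grb2* in the same library, the FPKM of *Sos1* was 0.234 to 0.274 at baseline, 0.177 to 0.204 with vehicle and 0.172 to 0.303 with NSC. *Shc1* over *Grb2* was 0.824 to 0.908 at baseline, 1.08 to 1.33 with vehicle and 0.835 to 1.12 with NSC. In the vehicle remnants both ratios stood clear of baseline, *Sos1* below and *Shc1* above, and in the NSC remnants both overlapped baseline and vehicle.

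**Figure D2:**
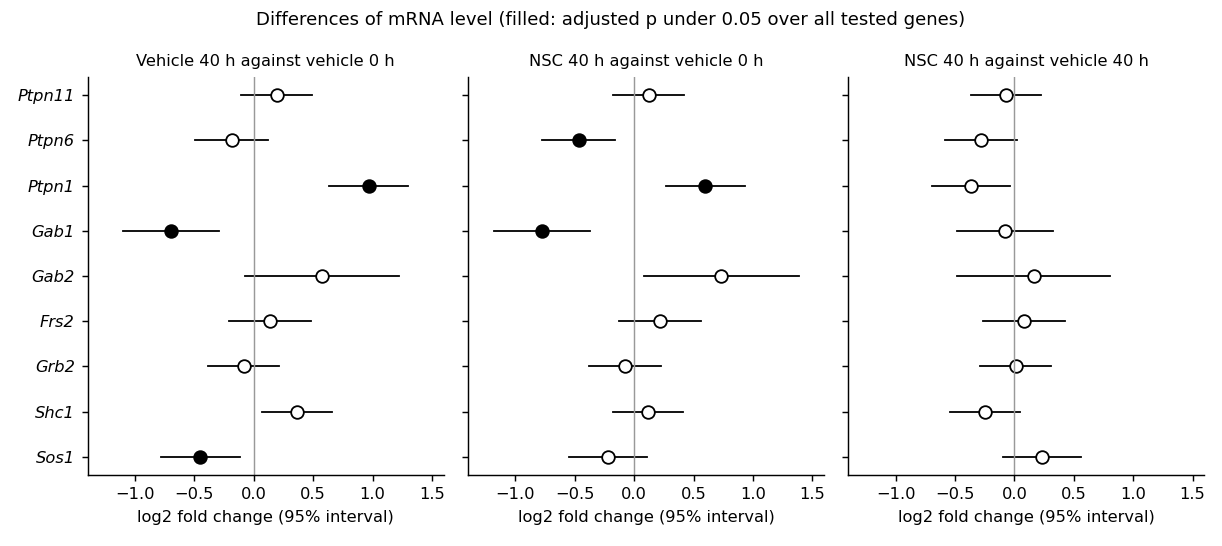
Log2 fold change (horizontal axis) of each gene in 3 comparisons, with the 95% interval as a line and a filled point where the adjusted p over 15024 genes was under 0.05. Filled points stand for *Ptpn1*, *Gab1* and *Sos1* with vehicle and *Ptpn1*, *Gab1* and *Ptpn6* with NSC, and there are 0 in the comparison of NSC with vehicle.

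Counts over the 9 members were read beside the same counts over all tested genes. With vehicle against baseline, 1 of 9 rose (*Ptpn1*) and 2 fell (*Gab1*, *Sos1*), beside 12.7% and 11% of all 15024 tested genes. With NSC against baseline, 1 rose (*Ptpn1*) and 2 fell (*Gab1*, *Ptpn6*), beside 18.2% and 16.5%. In the direct comparison 0 members rose or fell, beside 0% and 0.0399%, and 1 (*Ptpn1*) had an unadjusted p under 0.05. DESeq2 also called 0 members there.

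With a further requirement of an absolute log2 fold change over 1.5, 0 members were called in any comparison by edgeR, beside 7.22% of genes with vehicle, 8.13% with NSC and 0.02% in the direct comparison, and 4, 4 and 1 members had an unadjusted p under 0.05. The largest absolute log2 fold change of a member was 0.97, 0.78 and 0.37 in the 3 comparisons. The median absolute value over the 9 members was 0.36 with vehicle, 0.22 with NSC and 0.16 between treatments, beside 0.39, 0.48 and 0.28 over all tested genes. Without overlap of the groups, 4 members were higher and 2 lower with vehicle, beside 24.2% and 22% of tested genes, and 2 were higher and 2 lower with NSC, beside 24% and 23.1%. Between treatments 0 were higher and 1 was lower (*Ptpn6*), beside 10.3% and 12.2%. Both comparisons with baseline use the same 3 baseline libraries.

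Per length, *Grb2*, *Shc1* and *Ptpn11* had the highest levels at baseline, at 13.9 ± 0.418, 12.1 ± 0.459 and 10.02 ± 0.865 FPKM (SD, n = 3). *Ptpn6* followed at 7.36 ± 0.629 FPKM. *Ptpn1* (3.88 ± 0.310), *Sos1* (3.44 ± 0.232), *Gab1* (2.73 ± 0.469) and *Frs2* (2.69 ± 0.394) FPKM each overlapped the next in order, and *Gab2* stood below at 0.347 ± 0.0651 FPKM. *Ptpn11* exceeded 76.8% of tested genes at baseline in FPKM, and *Gab2* exceeded 16.0%.

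With vehicle at 40 h the order was *Shc1* (15.7), *Grb2* (13.1), *Ptpn11* (11.5), *Ptpn1* (7.61), *Ptpn6* (6.52), *Frs2* (2.98), *Sos1* (2.53), *Gab1* (1.69) and *Gab2* (0.519 FPKM), and of these neighbours the ranges of *Ptpn1* and *Ptpn6* alone overlapped. *Ptpn1*, below *Ptpn6* at baseline, was thus at a like level to it in the vehicle remnants. With NSC, *Grb2* (14.5), *Shc1* (14.4) and *Ptpn11* (12.0 FPKM) overlapped from one to the next, as did *Ptpn1* (6.47) with *Ptpn6* (5.86) and *Frs2* (3.45) with *Sos1* (3.26), while *Gab1* (1.75) and *Gab2* (0.642) stood apart from their neighbours.

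**Figure D3:**
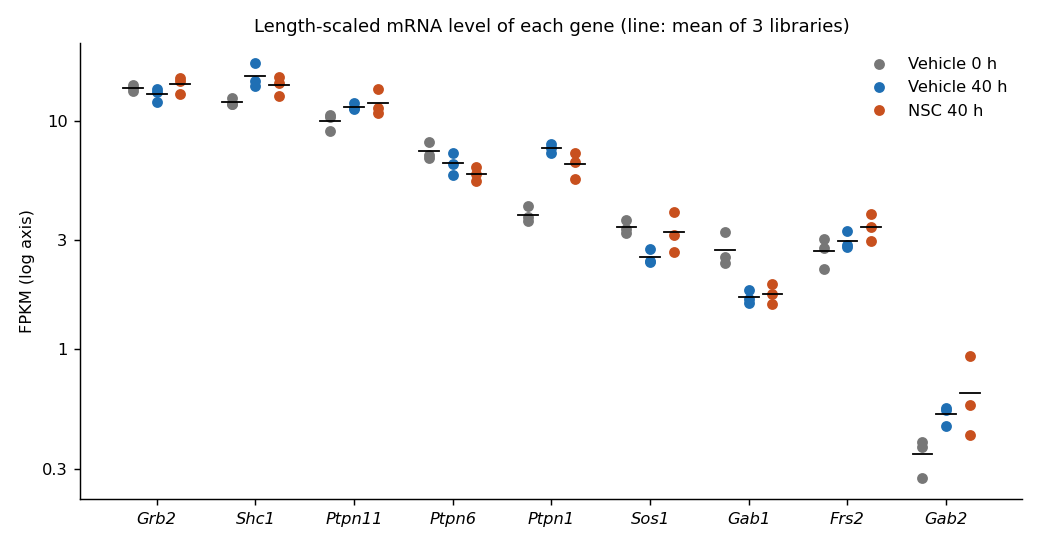
FPKM on a log axis for each gene, ordered by baseline mean, with 3 libraries per group as points and the mean as a line. *Gab2* is below 1 FPKM in every library, and *Ptpn1* moves up from 3.88 FPKM at baseline to 7.61 with vehicle and 6.47 with NSC.

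The patterns of the phosphatases over the 9 libraries were compared with those of all other tested genes by the root mean square (RMS) difference of log2 CPM after each gene's mean was removed. A gene that did not vary would differ by 0.128 from *Ptpn11*, 0.213 from *Ptpn6* and 0.419 from *Ptpn1*. Nearest to *Ptpn11* were *Atp6v1b2* (0.059), *Tnfaip1* (0.062) and *Pja2* (0.069), beside a median of 0.396 over all genes. Nearest to *Ptpn6* were *Rnf44* (0.058), *Man2a2* (0.059) and *Ikbkb* (0.062), with a median of 0.425. Each of these genes was lower in all 3 NSC remnants than in every baseline sample, the way *Ptpn6* was. Nearest to *Ptpn1* were *Kng1* (0.069), *Tnfrsf1a* (0.105) and *Xbp1* (0.134), with a median of 0.555. *Kng1*, which encodes kininogen, measured 1793 to 2058 CPM at baseline, 2928 to 4176 CPM with vehicle and 2510 to 3168 CPM with NSC. It followed *Ptpn1* closely in log2 scale at a far higher level. These likenesses are a description over libraries that share 3 conditions. The genes were picked for likeness, so a shared pattern was fixed by the choice.

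The other genes of the pathway were read from 6 lists, of which 78 genes were tested. With vehicle against baseline 9 rose and 7 fell, and with NSC against baseline 14 rose and 11 fell. These are 20.5% and 32.1% of the 78, beside 23.7% and 34.7% of all tested genes, so the share called was below that background in both comparisons. Between NSC and vehicle, edgeR called 0 of the 78, with 22 at an unadjusted p under 0.05. DESeq2 called 6 of the 72 to which it gave an adjusted p, 2 higher and 4 lower with NSC. The share of all genes that DESeq2 called was not read beside this count, so it is no result about the lists. The median log2 fold change of the 78 was 0.02, 0.04 and -0.04 in the 3 comparisons, beside 0.01, 0.01 and 0.02 over all tested genes.

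Of the receptors upstream of the docking proteins, 4 of 16 rose and 2 fell with vehicle, among them *Pdgfra* (log2 fold change 1.22, adjusted p = 0.00417), *Pdgfrb* (0.88, adjusted p = 0.00439) and *Klb* (-0.99, adjusted p = 0.00203), the coreceptor through which FGF receptors respond to FGF15 and FGF21. With NSC against baseline 2 rose and 3 fell (1 and 2 without baseline replicate 3), among them *Kit* (1.70, adjusted p = 0.000814), *Klb* (-1.095, adjusted p = 0.000790) and *Erbb3* (-1.20, adjusted p = 0.00188), a receptor of the EGFR family. *Klb* went from 39.4 ± 2.15 CPM at baseline to 19.8 ± 4.45 with vehicle and 18.4 ± 1.80 with NSC (SD, n = 3), so a receptor component above *Frs2* fell where *Frs2* itself was not called. The 8 stellate cell genes, which include *Pdgfrb*, summed to 105 to 115 CPM at baseline, 246 to 416 with vehicle and 112 to 240 with NSC, and 6 rose with vehicle and 2 with NSC (1 without any baseline library or without vehicle replicate 1 or 2). The part of these cells in the receptor values was not tested.

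Of 10 tested genes of proteins that dock SHP1 or SHP2 through inhibitory tyrosine motifs, 0 rose and 2 fell with vehicle, and 2 rose and 1 fell with NSC. *Ceacam1*, an adhesion receptor of hepatocytes that binds both phosphatases, fell with vehicle (-0.70, adjusted p = 0.0108) and with NSC (-0.87, adjusted p = 0.00233), from 159 ± 23.3 CPM at baseline to 97.5 ± 10.2 and 86.5 ± 13.4 CPM. *Btla*, a lymphocyte receptor, fell with vehicle (-1.74, adjusted p = 0.0325) from 1.02 to 0.303 CPM, with overlapping groups. *Lair1* (1.06, adjusted p = 0.0336) and *Sirpa* (0.79, adjusted p = 0.0363), receptors of myeloid cells, rose with NSC, where 6 of 13 macrophage genes rose too. The part of macrophages in these receptor values was not tested. *Ceacam1* with NSC was the 1 call here that passed whichever library was left out. With vehicle 0 passed without baseline replicate 1, and 1 without baseline replicate 3 or any 1 vehicle library, and with NSC 1 passed without baseline replicate 2, baseline replicate 3 or NSC replicate 1.

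Among relatives of the adaptors, 2 of 16 rose and 2 fell with vehicle, and 4 rose and 3 fell with NSC. With vehicle these included *Shc2* (2.89, adjusted p = 0.00222), *Grb10* (1.19, adjusted p = 0.00256) and *Sh2b1* (-0.44, adjusted p = 0.0319). *Shc2*, a relative of *Shc1*, was scarce throughout, at 0.200 ± 0.0305 CPM at baseline, 2.58, 1.04 and 0.886 CPM in the vehicle remnants and 0.790 ± 0.2398 CPM with NSC. The *Sh2b1* call with vehicle was lost without any 1 baseline library or without vehicle replicate 1 or 3 (adjusted p up to 0.142), and the list then had 2 called genes without baseline replicate 3 or vehicle replicate 1 or 3. With NSC they included *Sh2b1* (-0.90, adjusted p = 0.000540), *Grb7* (-1.03, adjusted p = 0.00133) and *Nck1* (0.79, adjusted p = 0.00240). GRB7, GRB10 and SH2B1 are SH2 adaptors of receptor tyrosine kinases, and NCK1 links them to the actin cytoskeleton.

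Downstream of SOS1, *Nras* rose with vehicle (0.62, adjusted p = 0.0129) and with NSC (0.82, adjusted p = 0.00200), from 20.4 ± 1.17 CPM at baseline to 31.3 ± 4.67 and 35.9 ± 4.55 CPM. *Araf*, a RAF kinase gene, fell with NSC against baseline (-0.75, adjusted p = 0.00155). Of the 16 genes of the RAS to ERK core, 1 rose and 0 fell with vehicle, and 3 rose and 2 fell with NSC. With vehicle, 0 were called without baseline replicate 1, baseline replicate 3 or vehicle replicate 3 (adjusted p of *Nras* up to 0.0537), and 2 without baseline replicate 2 or NSC replicate 3. With NSC, 3 were called without baseline replicate 1, baseline replicate 3 or NSC replicate 2, and 8 without NSC replicate 3, while *Nras* and *Araf* passed each time. The median log2 fold change of the 16 with NSC against baseline was 0.19, and -0.05 after GC correction. Without that correction, *Nras* had higher mRNA in NSC remnants than at baseline where *Grb2* and *Shc1* were not called.

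Of 12 other non-receptor phosphatases, *Ptpn2* (TCPTP), the closest relative of *Ptpn1*, rose with vehicle (0.81, adjusted p = 0.00789) and with NSC (0.83, adjusted p = 0.00453), from 9.70 ± 0.934 CPM to 17.0 ± 3.26 and 17.2 ± 2.83 CPM. *Ptpn13* rose with vehicle (1.59, adjusted p = 0.0315), and *Ptpn23* fell with NSC (-0.68, adjusted p = 0.0120), so 2 rose and 0 fell with vehicle and 1 rose and 1 fell with NSC. *Ptpn2* passed whichever library was left out, whereas *Ptpn13* was lost without baseline replicate 1 or 2 or any vehicle library (adjusted p up to 0.112) and *Ptpn23* without baseline replicate 3 (0.0642). After GC correction 0 of the 12 were called with NSC against baseline, so the calls of *Ptpn2* and *Ptpn23* with NSC were lost. Of 8 Src family genes and their regulators, *Lck*, a T cell kinase, fell with vehicle (-2.03, adjusted p = 0.0139), beside the lymphocyte genes given above. *Lck* was scarce, at 1.01 ± 0.438 CPM at baseline and 0.241 ± 0.153 CPM with vehicle, and the part of lymphocytes in its level was not tested. With NSC, *Yes1* (0.52, adjusted p = 0.0267) and *Fgr* (0.83, adjusted p = 0.0300) rose and *Csk* (-0.58, adjusted p = 0.0234) fell. *Csk* encodes the kinase that holds Src family kinases inactive. In total 0 rose and 1 fell with vehicle, and 2 rose and 1 fell with NSC. With vehicle 0 were called without baseline replicate 3 or vehicle replicate 1 or 3, and 2 without NSC replicate 1. With NSC 0 were called without NSC replicate 1 or 2, and 1 without baseline replicate 3.

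The remaining marker lists were read for the makeup of the samples. Of 10 hepatocyte genes, 0 rose and 4 fell with vehicle and 1 rose and 5 fell with NSC. Endothelial genes (2 of 8 fell with vehicle, 1 with NSC), erythroid genes (1 of 5 fell in each) and cholangiocyte genes (4 of 5 rose with vehicle, 3 with NSC) had calls as well, with 0 called in the other direction. Over all tested genes 12.7% rose and 11% fell with vehicle, and 18.2% rose and 16.5% fell with NSC. Counts of 1 or 2 in lists this short are therefore no result about the lists. The counts of the other lists given above stand beside the same shares. Cholangiocyte genes summed to 37.8 to 40.7 CPM at baseline, 76.0 to 115 with vehicle and 79.1 to 122 with NSC. Most of that was *Spp1*, and the other genes of the list summed to 4.43 to 6.57, 15.1 to 18.8 and 8.77 to 11.8 CPM. The cholangiocyte count with NSC was 1 without baseline replicate 1 or 2, the endothelial count with vehicle was 1 without vehicle replicate 1 or 3, and that with NSC was 0 without baseline replicate 2, baseline replicate 3 or NSC replicate 2 and 3 without NSC replicate 1. Without vehicle replicate 2 the erythroid count with vehicle was 2. The part of such cells in the level of any member was not tested.

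GC content was read beside every member because it moved results of the NSC comparisons. The longest transcripts of the members ran from 41.0% GC (*Sos1*) to 55.6% (*Ptpn1*), beside a median of 49.7% and quartiles of 44.8% and 54.3% over the tested genes. After a correction fitted to each library, 4 members were called with vehicle and 4 with NSC against baseline. *Ptpn1* and *Gab1* passed in both with and without it. *Sos1* and *Gab2* were gained and *Ptpn6* was lost with NSC, and *Shc1* was gained with vehicle. In the direct comparison the values of all 9 members lay between -0.12 and 0.24 after correction, and 0 were called. Of the 78 genes of the pathway lists, 16 were called with vehicle and 24 with NSC against baseline after correction. Values of single list genes after the correction are not given here.

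**Figure D4:**
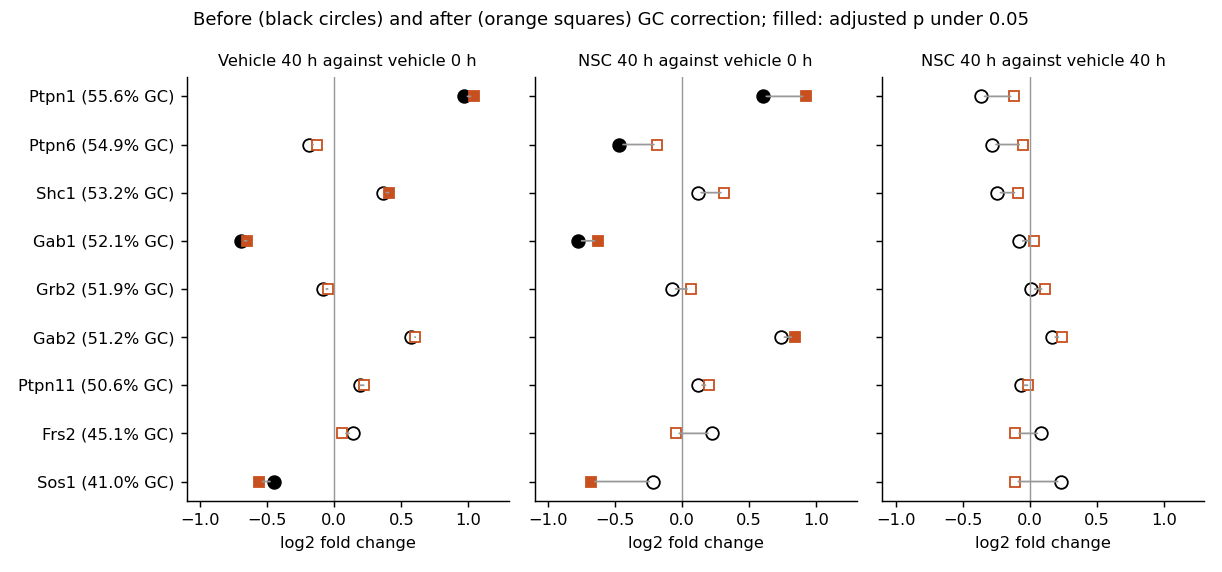
Log2 fold change (horizontal axis) of each gene before (circles) and after (squares) correction for GC content in 3 comparisons, with genes ordered by the GC content of the longest transcript and filled symbols at an adjusted p under 0.05. *Sos1*, at 41.0% GC, moves down and *Ptpn6* and *Ptpn1*, at 54.9% and 55.6%, move up in the NSC comparisons.

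Overlapping genes took few reads. *Ptpn6* overlaps *Gm20531* on the opposite strand, which had 0 counts in every library, and *Grb2* overlaps the pseudogene *Gm11702*, which had at most 1 count in a library.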

How the data were processed

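RNA-Seq of mouse liver was analysed in 9 libraries, 3 per group. The authors aligned reads with STAR 2.6.1 in the MAP-RSeq pipeline, assigned them to genes with Subread 1.5.1 and deposited, for each library on its own, the raw counts per gene and FPKM. The FPKM carry no TMM scaling, since dividing each count by gene length and by the total of its library gave them back (largest relative difference 4.96e-10). The records name a human genome, whereas identifiers and coordinates are those of mouse GRCm38, with 42462 of 43346 identifiers in GENCODE M21. The libraries were stranded, and whether counting used strand is not stated. Coordinates are those of the deposited table.

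Tests were run with edgeR 4.0.16, DESeq2 1.42.0 and limma 3.58.1 under R 4.3.3, and lists, sequences and plots in Python 3.11.15 with pandas 2.3.3, Biopython 1.88 and matplotlib 3.10.9. TMM factors, filterByExpr (15024 genes kept) and 1 robust quasi-likelihood fit of all 9 libraries were used, with adjustment over all tested genes and a call at an adjusted p under 0.05. With 3 against 3, an exact permutation test cannot go below 0.1, so none was run. The procedure was tested on simulated data.

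All members are named, with the 3 nearest genes of each phosphatase and, per pathway list and comparison, up to 3 called genes of smallest p. 1 gene that this rule selects is not reported here. The members and lists were chosen with earlier results of these data known. Alternatives were other scalings, filters, DESeq2, the 2 groups alone, the replicate number as a block, GC correction (a loess curve of span 0.5 per library, GC known for 99.2% of tested genes) and each library left out.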

Additional observations from a re-analysis of the deposited data

How the results depend on the processing

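The number of members called stayed within 1.5 times its main value in 50 recomputed counts and moved further in 4. With the added fold threshold it became 0 in both comparisons with baseline, and with vehicle it ranged from 1 to 4 when 1 library was left out, with 1 without baseline replicate 2 and 1 without vehicle replicate 1. With NSC against baseline it ranged from 2 to 3 over libraries left out, and between treatments it was 0 under every alternative run. Among recomputed log2 fold changes, 420 kept their direction and side of the threshold, 17 lost a call, 7 gained one and 15 changed sign, none of the last being a called value.

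Library size as the only scaling moved the median of all tested genes to 0.15 for NSC against baseline and 0.14 for NSC against vehicle. Under it *Grb2* against baseline became 0.060, and in the direct comparison *Ptpn11* became 0.062 and *Gab1* 0.048, all below that shift. With GC correction *Frs2* became -0.049 and *Grb2* 0.063 for NSC against baseline, and *Gab1* 0.028, *Frs2* -0.11 and *Sos1* -0.11 for NSC against vehicle. When 1 library was left out, *Grb2* ranged from -0.12 to 0.016 for NSC against baseline, and in the direct comparison *Gab1* ranged from -0.19 to 0.011, *Gab2* from -0.18 to 0.37 and *Grb2* from -0.045 to 0.11. *Grb2* was negative there without vehicle replicate 1 (-0.036), vehicle replicate 3 (-0.045), NSC replicate 2 (-0.039) or NSC replicate 3 (-0.039). The cause was not tested.

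Replicate numbers are shared between groups, but which mouse each specimen came from is not stated, so the numbers were not taken as pairs. The deviations of same-numbered samples correlated at -0.05 to 0.13, and those of other samples at -0.12 to 0.07. The value of 0.13 was between an NSC and a vehicle remnant, which cannot share a mouse. These correlations therefore cannot decide whether samples were paired. With the replicate number as a block, 3, 3 and 0 members were called in the 3 comparisons, and the block changed no call of a member. Low depth limits *Gab2* most, with 51 counts in its lowest library.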
